A study of Mus musculus with 4 samples.

Results

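The small heat shock protein genes and Bag3 were examined in nuclei of mouse hearts with a mutation of Rbm20, a splicing factor of heart and skeletal muscle that acts on titin and other muscle transcripts. The 8 genes, of 32285 mouse genes measured, were taken by symbol: Hspb1, Hspb2, Hspb3, Hspb6, Hspb7, Hspb8, Cryab and Bag3. All 8 had UMIs in cardiomyocyte nuclei of each of the 4 libraries. Small heat shock proteins are chaperones that hold unfolding proteins without using ATP, and in heart muscle several of them gather at Z-discs, desmin filaments and titin. Bag3 is the co-chaperone that joins HSPB8 and HSP70 in one complex, which passes damaged Z-disc proteins such as filamin C to autophagy. Inherited variants of BAG3 and CRYAB are known causes of cardiomyopathy in humans.

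Nuclei came from hearts of C57BL/6 mice aged 6 months, with 3 hearts pooled for each of 4 libraries. Rbm20_homo_corrected carried the homozygous Rbm20 mutation and had received a gene editing correction, Rbm20_homo carried the homozygous mutation, Rbm20_het was heterozygous for it, and WT was wild type. The mutation, the editor, its delivery and the time of treatment are not given in the sources used here, and no control for delivery alone was analysed. With 1 library a genotype and no key from nuclei to hearts, each value rests on n = 1 library, no test between genotypes was possible, and every difference below is one between libraries.

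The libraries held 37180791 to 52370368 UMIs (unique molecular identifiers, 1 per captured RNA molecule), and 41139 nuclei were kept. Pairs of libraries shared 26 to 56 barcodes, at most 0.485% of either. Marker genes gave 8 classes with at least 50 nuclei in every library. The ventricular cardiomyocyte-like class held 3058 nuclei in Rbm20_homo_corrected, 2958 in Rbm20_homo, 2380 in Rbm20_het and 2907 in WT. Its Rbm20_homo nuclei lay mostly in one cluster (2897 nuclei), while those of Rbm20_homo_corrected (2804), Rbm20_het (2247) and WT (2856) lay mostly in another. Summed, 10 cardiomyocyte markers came to 59176 CPM in Rbm20_homo_corrected, 52449.9 CPM in Rbm20_homo, 55409.5 CPM in Rbm20_het and 61114 CPM in WT in that class. The nuclear RNA Malat1 took 15.4% of the cardiomyocyte UMIs in Rbm20_homo_corrected, 24.1% in Rbm20_homo, 15.4% in Rbm20_het and 14.5% in WT. Of the 8 genes, only Cryab was among the genes used for clustering.

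Levels are CPM (counts of a gene scaled to the non-mitochondrial UMIs summed over a class in a library), and brackets hold 95% intervals of counting error alone. A gene is called past the fold where the whole interval of a ratio of 2 libraries lies beyond 1.5-fold, among genes with at least 50 UMIs in both libraries together. CPM is not scaled by transcript length, so levels are compared between libraries and not between genes.

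Positions are those of the GENCODE annotation of GRCm38. Hspb1 lies on the plus strand at chr5:135887919-135889563, and Hspb6 on the plus strand at chr7:30552178-30555443, where it overlaps Proser3 and Lin37 on the other strand and Gm38670 on its own. Hspb7 lies on the plus strand at chr4:141420779-141425311, Hspb8 on the minus strand at chr5:116408491-116422864, and the intronless Hspb3 on the minus strand at chr13:113662896-113663676. Hspb2 (minus strand, chr9:50751078-50752354) and Cryab (plus strand, chr9:50751325-50756636) are a head-to-head pair whose annotated bodies overlap. Bag3 spans chr7:128523616-128546981 on the plus strand and overlaps 2610306O10Rik on the same strand. The sources do not say how overlapping genes were counted, so the counts of Hspb2, Cryab, Hspb6 and Bag3 may hold reads of their neighbours.

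Heat shock factors bind inverted repeats of the letters GAA. RefSeq upstream sequence was at hand for 6 of the 8 genes, in 7 windows of 300 bases that run from 250 bases before a transcript start to 50 after it (GRCm38.p6). A pair of inverted repeats, GAANNTTC or TTCNNGAA, each of which reads the same on both strands, was found in 5 of these 7 windows and in 15.1% of all 32851 windows of the table. The 3-unit form, GAANNTTCNNGAA or its reverse TTCNNGAANNTTC, was in 0 of the 7 windows and in 0.603% of all windows. The 250 bases before the start are shown for Hspb1, the member with the largest ratios, for Hspb6, which was past the fold together with Hspb1 in Rbm20_het, and for Bag3, which was past it nowhere. Capitals mark the inverted repeats.
Hspb1, chr5:135887669-135887918, plus strand: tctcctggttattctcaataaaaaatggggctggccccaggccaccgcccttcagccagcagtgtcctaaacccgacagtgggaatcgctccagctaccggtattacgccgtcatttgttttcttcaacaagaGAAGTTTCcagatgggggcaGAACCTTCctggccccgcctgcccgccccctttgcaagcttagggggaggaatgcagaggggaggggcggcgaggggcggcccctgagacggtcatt
Hspb6, second of 2 starts, chr7:30553051-30553300, plus strand: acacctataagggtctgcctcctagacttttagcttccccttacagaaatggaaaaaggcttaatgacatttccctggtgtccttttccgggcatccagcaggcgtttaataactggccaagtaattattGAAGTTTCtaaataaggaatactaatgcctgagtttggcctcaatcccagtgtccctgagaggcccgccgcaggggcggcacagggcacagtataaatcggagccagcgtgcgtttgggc
Bag3, chr7:128523333-128523582, plus strand: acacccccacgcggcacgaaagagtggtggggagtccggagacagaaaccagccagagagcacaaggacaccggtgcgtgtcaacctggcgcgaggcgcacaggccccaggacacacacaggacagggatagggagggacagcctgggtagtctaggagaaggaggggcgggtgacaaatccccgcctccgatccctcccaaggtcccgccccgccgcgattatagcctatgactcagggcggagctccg
In Hspb1 the repeats began 117 and 97 bases before the start, and in Hspb6 120 bases before the start shown. The window of the other Hspb6 start held no such repeat, and neither did that of Hspb7. In Bag3 no repeat lay in the bases shown, and GAAGTTTC began at base 43 after the start. A match of letters is a description of the sequence and does not show binding.

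Hspb1, the small heat shock protein also called HSP25 in mice, caps actin filaments and holds unfolding proteins. Its level in cardiomyocyte-like nuclei was 10.2 CPM in Rbm20_homo_corrected [8.64 to 11.9], 51.8 CPM in Rbm20_homo [48.7 to 55.1], 9.20 CPM in Rbm20_het [7.74 to 10.9] and 17.8 CPM in WT [15.8 to 20.05]. Rbm20_homo stood above the other libraries with no overlap of intervals, and Rbm20_homo_corrected and Rbm20_het both lay below WT. The ratio of Rbm20_homo to WT was 2.90 [2.54 to 3.32], which rests on 1022 UMIs in Rbm20_homo and 284 in WT. The ratio of Rbm20_homo_corrected to Rbm20_homo was 0.196 [0.165 to 0.232], and that of Rbm20_het to WT was 0.516 [0.418 to 0.633], both past the fold. The ratio of Rbm20_homo_corrected to WT was 0.570 [0.466 to 0.694], which did not pass it.

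Cryab encodes alphaB-crystallin, a chaperone of desmin and titin. Its level was 67.4 CPM in Rbm20_homo_corrected [63.4 to 71.6], 131 CPM in Rbm20_homo [126 to 136], 74.1 CPM in Rbm20_het [69.9 to 78.6] and 79.3 CPM in WT [74.99 to 83.8]. Rbm20_homo was again the one library set apart, and the other 3 libraries lay close together. The ratio of Rbm20_homo to WT was 1.65 [1.54 to 1.77], and the ratio of Rbm20_homo_corrected to Rbm20_homo was 0.514 [0.478 to 0.553]. The ratios to WT were 0.850 for Rbm20_homo_corrected [0.782 to 0.923] and 0.935 for Rbm20_het [0.862 to 1.01], neither past the fold.

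**Figure D1:**
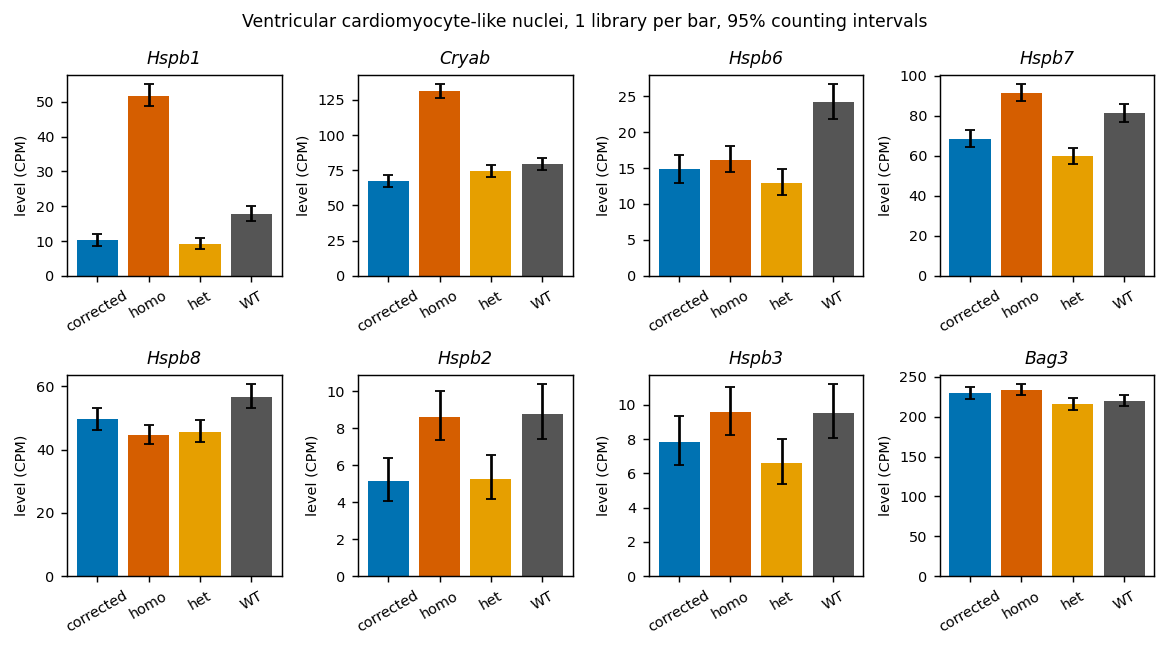
Level of each gene in ventricular cardiomyocyte-like nuclei (y axis, CPM, scale differs by panel) in Rbm20_homo_corrected, Rbm20_homo, Rbm20_het and WT (x axis, labelled corrected, homo, het and WT), 1 library per bar, with 95% intervals of counting error. Hspb1 at 51.8 CPM and Cryab at 131 CPM stand out in Rbm20_homo, while Bag3 lies between 215.6 and 233.6 CPM in all 4.

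Hspb6, known as HSP20 and a target of cAMP-dependent kinase in heart muscle, was highest in WT. Its level was 14.8 CPM in Rbm20_homo_corrected [12.9 to 16.8], 16.2 CPM in Rbm20_homo [14.4 to 18.04], 12.9 CPM in Rbm20_het [11.2 to 14.9] and 24.1 CPM in WT [21.8 to 26.7]. Only Rbm20_het was past the fold, with a ratio to WT of 0.535 [0.449 to 0.637]. The ratio to WT was 0.613 for Rbm20_homo_corrected [0.519 to 0.724] and 0.670 for Rbm20_homo [0.576 to 0.779], and the interval of each crossed the threshold.

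Hspb7, a muscle-specific family member that in mice is needed for ordered thin filaments, had 68.7 CPM in Rbm20_homo_corrected [64.6 to 72.9], 91.6 CPM in Rbm20_homo [87.4 to 95.9], 59.7 CPM in Rbm20_het [55.9 to 63.7] and 81.3 CPM in WT [76.9 to 85.9]. Hspb8, the small heat shock protein that binds BAG3, had 49.5 CPM in Rbm20_homo_corrected [46.1 to 53.2], 44.6 CPM in Rbm20_homo [41.7 to 47.6], 45.7 CPM in Rbm20_het [42.4 to 49.3] and 56.8 CPM in WT [53.2 to 60.6]. For neither gene did any of the 4 ratios pass the fold, and Hspb8 was lower in Rbm20_homo than in WT by a ratio of 0.785 [0.715 to 0.862], where Hspb7 was at 1.13 [1.05 to 1.21].

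Hspb2 and Hspb3, which form a complex with each other in muscle, were counted least. Hspb2 had 5.15 CPM in Rbm20_homo_corrected, 8.62 CPM in Rbm20_homo, 5.29 CPM in Rbm20_het and 8.80 CPM in WT, from 80 to 170 UMIs a library. Hspb3 had 7.85 CPM in Rbm20_homo_corrected, 9.58 CPM in Rbm20_homo, 6.59 CPM in Rbm20_het and 9.55 CPM in WT, from 101 to 189 UMIs. Neither passed the fold in any comparison. The Hspb2 ratio was 0.601 for Rbm20_het against WT [0.451 to 0.795] and 0.597 for Rbm20_homo_corrected against Rbm20_homo [0.452 to 0.784], both with intervals that cross the threshold. Hspb2 did not share the Rbm20_homo level of its neighbour Cryab: its ratio to WT there was 0.979 [0.778 to 1.23].

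Bag3 held nearly the same level in all 4 libraries: 229.7 CPM in Rbm20_homo_corrected [222 to 237], 233.6 CPM in Rbm20_homo [227 to 240.5], 215.6 CPM in Rbm20_het [208 to 223] and 220.1 CPM in WT [213 to 228]. The ratio to WT was 1.04 for Rbm20_homo_corrected [0.995 to 1.09], 1.06 for Rbm20_homo [1.02 to 1.11] and 0.979 for Rbm20_het [0.934 to 1.03]. The ratio of Rbm20_homo_corrected to Rbm20_homo was 0.983 [0.941 to 1.03]. All 4 intervals lay well inside 1.5-fold.

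Against WT, 2 of the 8 genes were past the fold upward in Rbm20_homo (Hspb1 and Cryab) and 0 downward, where 6.72% of 13062 genes tested were past it upward and 11.5% downward. With nuclei thinned to 1000 UMIs, which leaves fewer counts, 1 of the 8 was past it, at log2 ratios of 1.595 for Hspb1 and 0.73 for Cryab. In Rbm20_het, 0 were past it upward and 2 downward (Hspb1 and Hspb6), beside 1.84% upward and 1.78% downward of 12730 genes. Without doublet removal 1 of the 8 was past it in Rbm20_het, with log2 ratios of -0.79 for Hspb1 and -0.91 for Hspb6, and with nuclei thinned to 1000 UMIs 0 were. All 8 ratios of Rbm20_het to WT were below 1, with a median log2 ratio of -0.49, where that of all genes was -0.06, but 3 of the 8 directions turned under other settings. Bag3 was at a log2 ratio of 0.03 after TMM scaling, and with nuclei thinned to 1000 UMIs Hspb8 was at 0.15 and Cryab at 0.13. Rbm20_homo_corrected against Rbm20_homo had 0 upward and 2 downward (Hspb1 and Cryab), beside 7.25% upward and 4.76% downward of 12991 genes, and 1 downward with nuclei thinned to 1000 UMIs. Rbm20_homo_corrected against WT had 0 in either direction, beside 2.11% upward and 2.63% downward of 12767 genes. There 7 of 8 ratios were below 1, and the median log2 ratio was -0.26, where that of all genes was -0.06. These comparisons share libraries: Rbm20_homo and WT each serve in more than one of them. Here and below, the shares of all genes belong to the reported setting, not to counts after thinning or without doublet removal.

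The median log2 ratio of all genes in Rbm20_homo against WT was -0.18 by CPM, a comparison in which Malat1 differed, and -0.02 after TMM scaling, which rests on the bulk of genes. Relative to TMM scaling the log2 ratio was 1.70 for Hspb1, 0.89 for Cryab, 0.34 for Hspb7, 0.25 for Bag3, -0.18 for Hspb8 and -0.41 for Hspb6. By CPM the log2 ratios were 1.54, 0.72, 0.17, 0.09, -0.35 and -0.58 for the same genes. Hspb2, at -0.03 by CPM, was at 0.14 by TMM, and Hspb3 moved in the same way, by CPM at 0.00 and by TMM at 0.17. Malat1 also differed in Rbm20_homo_corrected against Rbm20_homo, where the median log2 ratio of all genes was 0.11 by CPM and 0.01 by TMM. There Hspb1 was at -2.35 by CPM and -2.45 by TMM, and Cryab at -0.96 and -1.06.

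**Figure D2:**
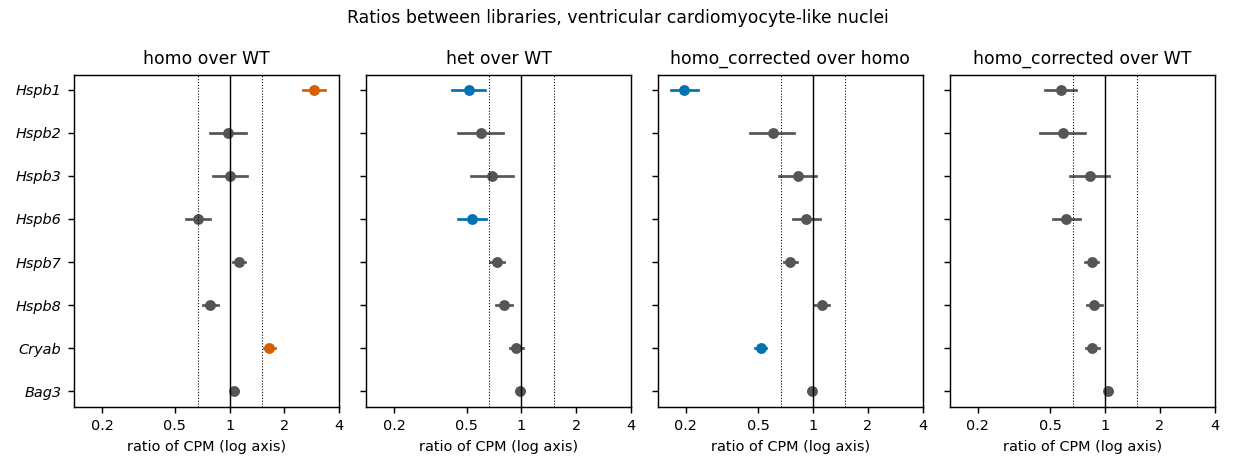
Ratio of CPM between libraries in ventricular cardiomyocyte-like nuclei (x axis, log scale) for each gene (y axis) in 4 comparisons, with 95% counting intervals. Dotted lines mark 1.5-fold either way, orange and blue are past it upward and downward: Hspb1 is past it in 3 of the panels, Cryab in 2 and Hspb6 in 1, and Bag3 stays near 1 throughout.

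The higher Hspb1 and Cryab levels in Rbm20_homo were spread over many nuclei. An Hspb1 UMI was found in 4.58% of cardiomyocyte-like nuclei in Rbm20_homo_corrected, 24.6% in Rbm20_homo, 5.50% in Rbm20_het and 8.84% in WT, at median depths of 4507.5, 5908.5, 5693 and 4849 UMIs in that order of libraries. With each nucleus thinned to 1000 UMIs the shares were 1.15% [0.801 to 1.59], 5.18% [4.41 to 6.04], 0.924% [0.580 to 1.40] and 1.79% [1.34 to 2.34]. In macrophage-like nuclei, a class not known for Hspb1, the thinned shares were 0.872%, 1.66%, 0.342% and 0.929% in the same order. The upper bounds of these macrophage shares were 1.89%, 3.39%, 1.89% and 2.69%. Thus in Rbm20_homo the interval of the cardiomyocyte share lay wholly above that of macrophage-like nuclei. In the other 3 libraries the intervals overlapped and did not set the share apart from that class. Macrophage-like nuclei held few Hspb1 UMIs: 12 in Rbm20_homo_corrected, 13 in Rbm20_homo and 9 in WT. By CPM of all UMIs, the fibroblast-like level of Hspb1 was 68.6%, 41.5%, 73.9% and 39.6% of the cardiomyocyte-like level in the same order of libraries as the shares.

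A Cryab UMI was found in 26.2% of cardiomyocyte-like nuclei in Rbm20_homo_corrected, 46.4% in Rbm20_homo, 34.4% in Rbm20_het and 30.7% in WT. Thinned, these were 7.05% [6.17 to 8.02], 11.0% [9.92 to 12.2], 8.36% [7.28 to 9.55] and 7.13% [6.22 to 8.13], against 5.09%, 9.95%, 4.79% and 4.95% in macrophage-like nuclei. The macrophage intervals were 3.57 to 7.004%, 7.27 to 13.2%, 2.65 to 7.91% and 2.86 to 7.92%, which overlap those of cardiomyocyte-like nuclei in all 4 libraries. The thinned shares alone thus do not set Cryab apart from macrophage-like nuclei. By CPM of all UMIs, the macrophage-like level of Cryab was 72.7%, 71.0%, 46.0% and 70.4% of the cardiomyocyte-like level in the same order of libraries. The nucleus with most UMIs held 13 of Hspb1 and 20 of Cryab, both in Rbm20_homo, where 5.92% of nuclei had at least 2 UMIs of Hspb1, against 0.791% in WT. For Cryab, 19.7% had at least 2 UMIs in Rbm20_homo and 8.60% in WT. A Bag3 UMI was found in 60.0% of nuclei in Rbm20_homo_corrected, 69.8% in Rbm20_homo, 64.7% in Rbm20_het and 59.9% in WT, and thinned in 20.4%, 20.4%, 18.8% and 19.7%, against 4.80%, 4.27%, 4.45% and 6.19% of macrophage-like nuclei. Median depths of macrophage-like nuclei were 1755.5, 2110, 1864 and 1837 UMIs in the same order.

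Within Rbm20_homo, nuclei with a UMI of the stress marker Nppb (1228, median depth 6854 UMIs) had 61.2 CPM of Hspb1 [56.3 to 66.5] and 147 CPM of Cryab [139 to 155]. Those without one (1730, median depth 5371 UMIs) had 43.4 CPM of Hspb1 [39.5 to 47.6] and 117 CPM of Cryab [110.3 to 123.5]. In WT, the 147 nuclei with an Nppb UMI (median depth 6420 UMIs) had 26.0 CPM of Hspb1 [17.1 to 37.8] and 114 CPM of Cryab [94.8 to 137]. The 2760 without one (median depth 4786 UMIs) had 17.3 CPM of Hspb1 [15.2 to 19.5] and 76.9 CPM of Cryab [72.5 to 81.4]. Hspb1 was thus higher in Rbm20_homo than in WT within both kinds of nuclei with no overlap of intervals, and so was Cryab, whose level in WT nuclei with an Nppb UMI was close to that of Rbm20_homo nuclei without one. The 61 Rbm20_homo nuclei in the cluster that holds most other cardiomyocyte nuclei had 115 CPM of Cryab [81.1 to 159] and 24.9 CPM of Hspb1 [10.8 to 49.1]. In the cluster that holds most Rbm20_homo cardiomyocyte nuclei, the 254 Rbm20_homo_corrected nuclei had 10.2 CPM of Hspb1 [5.41 to 17.4] and 80.5 CPM of Cryab [65.7 to 97.6]. The 133 Rbm20_het nuclei there had 15.1 CPM of Hspb1 [8.27 to 25.4] and 82.1 CPM of Cryab [64.7 to 103]. The 51 WT nuclei had 38.5 CPM of Hspb1 [20.5 to 65.8] and 127 CPM of Cryab [92.1 to 172]. Cryab was among the genes that formed these clusters. In Rbm20_homo_corrected, nuclei with a UMI of the features that the gene table names ABE (1208, median depth 5298 UMIs) had 10.9 CPM of Hspb1 [8.66 to 13.6] and 68.97 CPM of Cryab [63.0 to 75.3]. Those without one (1850, median depth 4003.5 UMIs) had 9.495 CPM of Hspb1 [7.52 to 11.8] and 65.98 CPM of Cryab [60.6 to 71.7]. The depths differ, so this split and the split by Nppb also sort nuclei by depth.

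Across classes, Bag3 and Hspb8 were highest in cardiomyocyte-like nuclei with no overlap with the next class over the 4 libraries. Bag3 had a mean of 225 CPM there (range 215.6 to 233.6), then 80.6 CPM in endothelial-like nuclei, 74.3 in endocardial-like, 69.4 in lymphatic endothelial-like, 64.9 in fibroblast-like, 61.3 in smooth muscle-like and 59.8 in macrophage-like nuclei, whose ranges overlapped from each to the next, and 40.2 CPM in pericyte-like nuclei. Hspb8 had a mean of 49.2 CPM in cardiomyocyte-like nuclei and 6.40 to 14.98 CPM elsewhere, where the range of each class overlapped that of the next in order. Hspb6 had 17.005 CPM and Hspb7 75.3 CPM in cardiomyocyte-like nuclei, in both cases first in order but overlapping with endothelial-like nuclei at 9.01 and 41.0 CPM. Hspb3 averaged 8.39 CPM in cardiomyocyte-like nuclei and 0.884 to 3.19 CPM elsewhere. Its range overlapped with that of macrophage-like nuclei, which reached 7.42 CPM in Rbm20_het, 112.5% of the cardiomyocyte-like level there. Hspb3 had 0 UMIs in smooth muscle-like nuclei of Rbm20_homo_corrected, Rbm20_homo and WT, where 3 counts would be 7.15, 8.02 and 12.8 CPM.

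Hspb1 and Hspb2 were highest outside heart muscle. For Hspb1 endothelial-like nuclei came first, at a mean of 41.3 CPM, before smooth muscle-like at 29.8, endocardial-like at 24.6, cardiomyocyte-like at 22.3 and lymphatic endothelial-like nuclei at 18.5 CPM. The ranges overlapped along this order. Hspb2 was highest in smooth muscle-like nuclei, at 19.1 CPM in Rbm20_homo_corrected [8.23 to 37.6], 13.4 in Rbm20_homo [4.34 to 31.2], 28.3 in Rbm20_het [12.2 to 55.8] and 38.3 CPM in WT [17.5 to 72.7], from 5 to 9 UMIs each. Cryab ranged from 88.0 CPM in cardiomyocyte-like to 42.5 CPM in fibroblast-like nuclei, and every neighbour in the order overlapped with the next.

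Free RNA from cardiomyocytes can enter droplets of other nuclei. For 10 cardiomyocyte markers, the level in the 7 other classes had a median of 6.53 to 25.1% of the cardiomyocyte level in the same library, and the highest marker reached 35.4 to 90.8%. Bag3 reached 15.2 to 40.7% of its cardiomyocyte level and Hspb8 0 to 44.9%, above the highest marker in 0 of 4 libraries in each of the 7 classes. Hspb1 reached 154 to 279% in endothelial-like nuclei, 87.8 to 231% in smooth muscle-like and 89.3 to 181% in endocardial-like nuclei. In lymphatic endothelial-like nuclei it reached 53.7 to 172% and in fibroblast-like nuclei 39.6 to 73.9%. In each of these classes it was above the highest marker in all 4 libraries. In pericyte-like and macrophage-like nuclei it was above that marker in 3 and 2 libraries. Hspb2 reached 155 to 535% in smooth muscle-like, 82.9 to 158% in endocardial-like and 42.8 to 92.7% in fibroblast-like nuclei. It was above the highest marker in all 4 libraries in each of these classes. Cryab reached 38.9 to 57.2% in fibroblast-like nuclei, above the highest marker in all 4 libraries there, and elsewhere it was above the highest marker in 1 to 3 libraries a class.

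**Figure D3:**
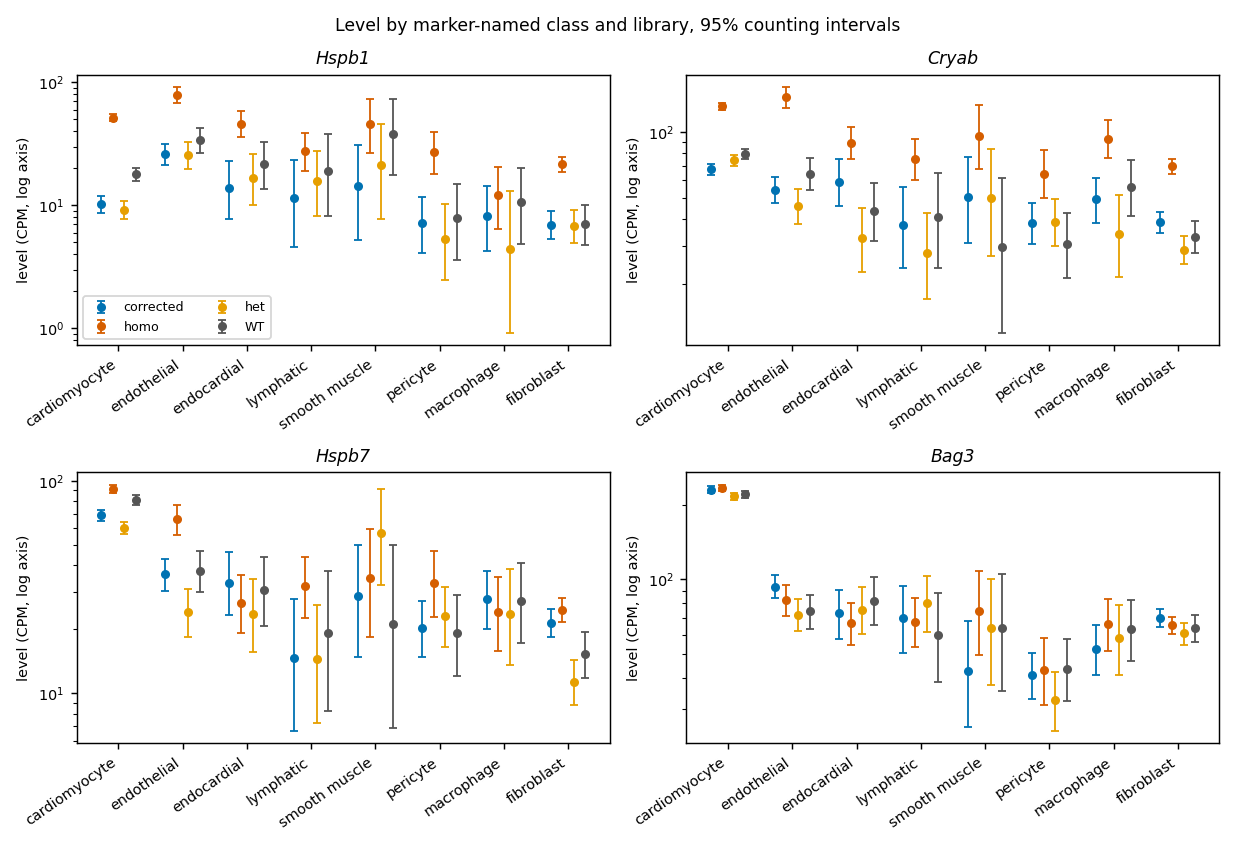
Level of Hspb1, Cryab, Hspb7 and Bag3 (y axis, CPM, log scale) in 8 classes of nuclei (x axis) in Rbm20_homo_corrected, Rbm20_homo, Rbm20_het and WT, with 95% counting intervals. Bag3 is highest in cardiomyocyte-like nuclei in all 4 libraries, Hspb1 is highest in endothelial-like nuclei in every library but WT, and the Rbm20_homo points of Hspb1 and Cryab are the highest of the 4 in every class.

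The higher Hspb1 and Cryab levels of Rbm20_homo were not limited to cardiomyocyte-like nuclei. Each of the 2 genes had its highest level in Rbm20_homo in 8 of 8 classes, though for Hspb1 only 3 of the 7 other classes had enough UMIs to be called. The median mitochondrial share of UMIs was also lowest in Rbm20_homo in all 8 classes. In fibroblast-like nuclei it was 0.143% in Rbm20_homo_corrected, 0.0915% in Rbm20_homo, 0.151% in Rbm20_het and 0.126% in WT, and in cardiomyocyte-like nuclei 0.178%, 0.0903%, 0.205% and 0.166% in the same order. Its part in the levels was not tested. In fibroblast-like nuclei Hspb1 had 6.98 CPM in Rbm20_homo_corrected [5.28 to 9.04], 21.5 CPM in Rbm20_homo [18.6 to 24.7], 6.80 CPM in Rbm20_het [4.90 to 9.20] and 7.06 CPM in WT [4.76 to 10.1]. Its ratio was 3.04 for Rbm20_homo against WT [2.07 to 4.63] and 0.325 for Rbm20_homo_corrected against Rbm20_homo [0.238 to 0.438]. Cryab had 38.5 CPM in Rbm20_homo_corrected [34.4 to 43.1], 69.5 CPM in Rbm20_homo [64.3 to 75.1], 28.8 CPM in Rbm20_het [24.8 to 33.4] and 32.9 CPM in WT [27.7 to 38.9]. Its ratios were 2.11 [1.76 to 2.55] for Rbm20_homo against WT and 0.555 [0.483 to 0.636] for Rbm20_homo_corrected against Rbm20_homo. Most fibroblast-like nuclei of Rbm20_homo (2706) lay in one cluster, and most of Rbm20_homo_corrected (3224), Rbm20_het (2004) and WT (1616) in another.

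In fibroblast-like nuclei, 2 of the 8 genes were past the fold upward and 0 downward in Rbm20_homo against WT, beside 5.50% upward and 3.63% downward of 12302 genes, and 1 upward with nuclei thinned to 1000 UMIs. The same 2 were past it downward in Rbm20_homo_corrected against Rbm20_homo, with 0 upward, beside 3.90% upward and 4.58% downward of 12830 genes. Hspb7 had a ratio of 1.62 for Rbm20_homo against WT [1.23 to 2.17], not past the fold, and Bag3 was at 1.03 [0.891 to 1.19].

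In endothelial-like nuclei Hspb1 had 26.1 CPM in Rbm20_homo_corrected [21.1 to 31.8], 79.5 CPM in Rbm20_homo [68.3 to 92.0], 25.7 CPM in Rbm20_het [19.9 to 32.7] and 34.0 CPM in WT [26.7 to 42.6]. Cryab had 54.3 CPM in Rbm20_homo_corrected [47.0 to 62.3], 144 CPM in Rbm20_homo [129 to 161], 45.6 CPM in Rbm20_het [37.7 to 54.6] and 64.3 CPM in WT [54.2 to 75.8]. The ratios of Rbm20_homo to WT were 2.34 for Hspb1 [1.78 to 3.11] and 2.25 for Cryab [1.84 to 2.75], and those of Rbm20_homo_corrected to Rbm20_homo were 0.328 [0.253 to 0.422] and 0.376 [0.314 to 0.449]. These 2 genes were past the fold in both comparisons and no other member was. The shares of all genes were 3.10% upward and 1.96% downward of 9258 for Rbm20_homo against WT, where thinning left 1 of the 8 past the fold, and 2.11% upward and 2.70% downward of 10010 for Rbm20_homo_corrected against Rbm20_homo. Hspb7 was at 1.75 for Rbm20_homo against WT [1.33 to 2.32], not past the fold.

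In the 5 smaller classes the Cryab ratio of Rbm20_homo to WT was 2.05 in endocardial-like [1.45 to 2.94], 1.84 in lymphatic endothelial-like [1.09 to 3.31], 1.67 in macrophage-like [1.17 to 2.41], 2.10 in pericyte-like [1.37 to 3.28] and 3.23 in smooth muscle-like nuclei [1.42 to 8.61], and every interval reached below 1.5. The smooth muscle-like ratio rests on 36 UMIs in Rbm20_homo and 7 in WT. Over the 7 classes outside heart muscle, Hspb1 ratios ran between 1.13 and 3.45, and their intervals included 1 in lymphatic endothelial-like [0.658 to 3.64], macrophage-like [0.447 to 2.998] and smooth muscle-like nuclei [0.501 to 3.02]. The ratios of Bag3 ran between 0.809 and 1.17.

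The cardiomyocyte markers were read in the same nuclei and in cardiomyocyte-like nuclei. In cardiomyocyte-like nuclei their median ratio of Rbm20_homo to WT was 0.872, with 4 of 10 above 1 and a highest ratio of 1.71 (Myom1). In fibroblast-like nuclei their median was 0.775, with 4 of 10 above 1 and a highest ratio of 1.49 (Actc1). In endothelial-like nuclei their median was 0.811, with 4 of 10 above 1 and a highest ratio of 1.36 (Myom1). Summed, they came to 5421 CPM in Rbm20_homo_corrected, 3337 CPM in Rbm20_homo, 3455 CPM in Rbm20_het and 4125 CPM in WT in fibroblast-like nuclei. In endothelial-like nuclei they came to 8500.2 CPM in Rbm20_homo_corrected, 6914 CPM in Rbm20_homo, 6496 CPM in Rbm20_het and 8761 CPM in WT. The sum was lower in Rbm20_homo than in WT in both classes, where Hspb1 and Cryab were higher, but 4 of 10 single markers were above 1. The same held in cardiomyocyte-like nuclei, where the sum was 52449.9 CPM in Rbm20_homo and 61114 CPM in WT. For Rbm20_homo_corrected against Rbm20_homo the median marker ratio was 1.57 in fibroblast-like, 1.20 in endothelial-like and 1.19 in cardiomyocyte-like nuclei. Below 1 were 1, 3 and 4 of 10 markers in that order of classes. The lowest ratio was that of Actc1 in each, at 0.833, 0.531 and 0.555. The part of free RNA in the levels of either gene was not tested.

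In a measure chosen after seeing the data, with the fibroblast-like level taken off the cardiomyocyte-like level of the same library, Hspb1 had 3.19 CPM left in Rbm20_homo_corrected, 30.3 in Rbm20_homo, 2.40 in Rbm20_het and 10.8 in WT, a ratio of Rbm20_homo to WT of 2.81. Cryab had 28.8 CPM left in Rbm20_homo_corrected, 61.5 in Rbm20_homo, 45.3 in Rbm20_het and 46.4 in WT, a ratio of 1.33. Bag3 had 159.7, 168, 155 and 157 CPM left in the same order of libraries, a ratio of 1.07.

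**Figure D4:**
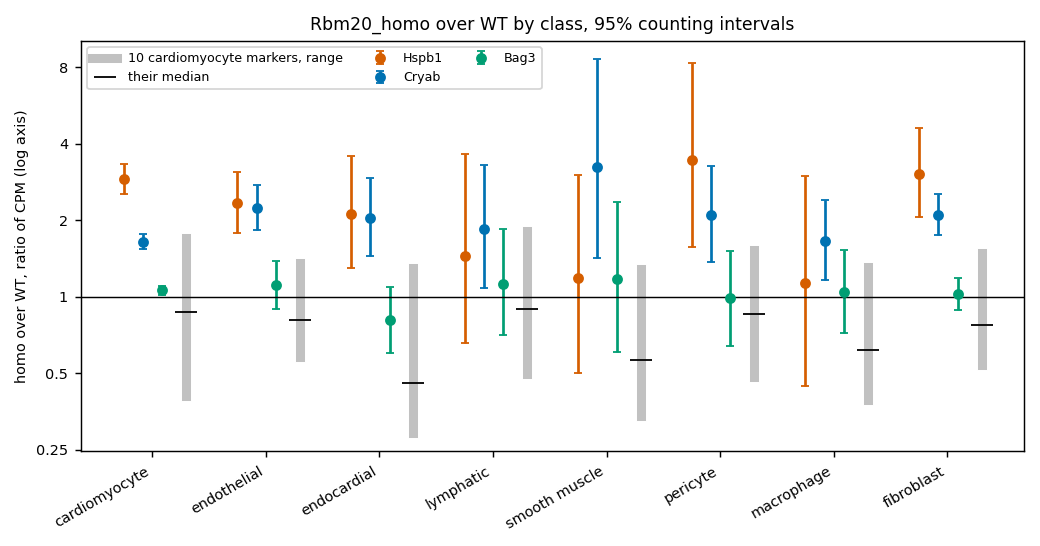
Ratio of CPM of Rbm20_homo over WT (y axis, log scale) in 8 classes of nuclei (x axis) for Hspb1, Cryab and Bag3 with 95% counting intervals, beside the range (grey) and median (dash) of 10 cardiomyocyte markers. Cryab lies above 1 in every class with its whole interval, Bag3 lies near 1, and the marker median lies below 1 in every class.

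Other chaperone genes of the pathway were read from 6 lists of 65 genes, of which 62 had enough UMIs in cardiomyocyte-like nuclei. Against WT, 4 were past the fold upward in Rbm20_homo (Hspa1l, Sqstm1, Flnc and Ywhag) and 2 downward (Hspa12a and Hspd1), with a median log2 ratio of 0.02 over the 62. Over all genes 6.72% were past it upward and 11.5% downward, so the upward count of the lists is near that share and the downward count below it. Among the BAG3 partners of chaperone-assisted autophagy, 3 of 12 were past it upward and 0 downward, beside the same 6.72% and 11.5% of all genes. In that list 5 ratios were above 1 and 7 below, with a median log2 ratio of -0.19, near the -0.18 of all genes. Flnc, the filamin C cleared by that route, had 89.6 CPM in Rbm20_homo_corrected, 167 CPM in Rbm20_homo, 99.1 CPM in Rbm20_het and 94.4 CPM in WT, a ratio of 1.77 for Rbm20_homo against WT [1.67 to 1.89]. Sqstm1, the autophagy receptor p62, had 104 CPM in Rbm20_homo_corrected, 149 CPM in Rbm20_homo, 107 CPM in Rbm20_het and 92.6 CPM in WT, and a ratio of 1.61 [1.51 to 1.71]. Ywhag, the 14-3-3 protein that binds BAG3, had 74.3 CPM in Rbm20_homo_corrected, 132 CPM in Rbm20_homo, 73.5 CPM in Rbm20_het and 73.7 CPM in WT, and a ratio of 1.79 [1.67 to 1.92]. Stub1, the ubiquitin ligase of the complex, had 29.5, 26.5, 30.3 and 41.9 CPM in that order and was not past the fold.

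In the HSP70 and HSP110 list 1 of 10 tested genes was past the fold upward and 1 downward, near the 6.72% and 11.5% of all genes. Hspa1l, an HSP70 best known from testis, had 2.70 CPM in Rbm20_homo_corrected, 8.46 CPM in Rbm20_homo, 1.96 CPM in Rbm20_het and 1.63 CPM in WT, a ratio of 5.18 for Rbm20_homo against WT [3.41 to 8.16]. Hspa12a had 21.6 CPM in Rbm20_homo_corrected, 10.6 CPM in Rbm20_homo, 18.01 CPM in Rbm20_het and 27.9 CPM in WT, a ratio of 0.381 [0.322 to 0.450]. The heat-inducible genes Hspa1a and Hspa1b had 16 and 6 UMIs over all 4 libraries, too few to test. The HSP40 list had 0 of 11 past the fold in either direction, with Dnajb1 at 2.25 CPM in Rbm20_homo_corrected, 5.12 CPM in Rbm20_homo, 3.85 CPM in Rbm20_het and 3.52 CPM in WT. Of 20 genes for HSP90, chaperonins and co-chaperones, 1 was past it downward, the mitochondrial chaperonin Hspd1, with 31.7 CPM in Rbm20_homo_corrected, 30.7 CPM in Rbm20_homo, 37.1 CPM in Rbm20_het and 54.5 CPM in WT. In this list 12 ratios of Rbm20_homo to WT were above 1 and 8 below. After Hspd1 the largest log2 ratios were those of Ahsa1 (0.69), Hsp90aa1 (0.68) and Cdc37 (-0.60), none past the fold. The other 5 BAG genes and the 4 heat shock factors had 0 past the fold, and Hsf1, the main stress-activated factor, had 28.0 CPM in Rbm20_homo_corrected, 22.8 CPM in Rbm20_homo, 28.2 CPM in Rbm20_het and 28.7 CPM in WT.

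Of the 62, 0 were past the fold in Rbm20_het against WT, beside 1.84% upward and 1.78% downward of all genes. In Rbm20_homo_corrected against Rbm20_homo, Hspa12a was past it upward and Hspa1l, Dnajb1, Flnc and Ywhag downward, beside 7.25% and 4.76% of all genes. In Rbm20_homo_corrected against WT only Hspd1 was past it, downward, with a ratio of 0.582 [0.520 to 0.651], beside 2.11% upward and 2.63% downward of all genes. Hspd1 stood at nearly the same level in Rbm20_homo_corrected and Rbm20_homo.

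**Figure D5:**
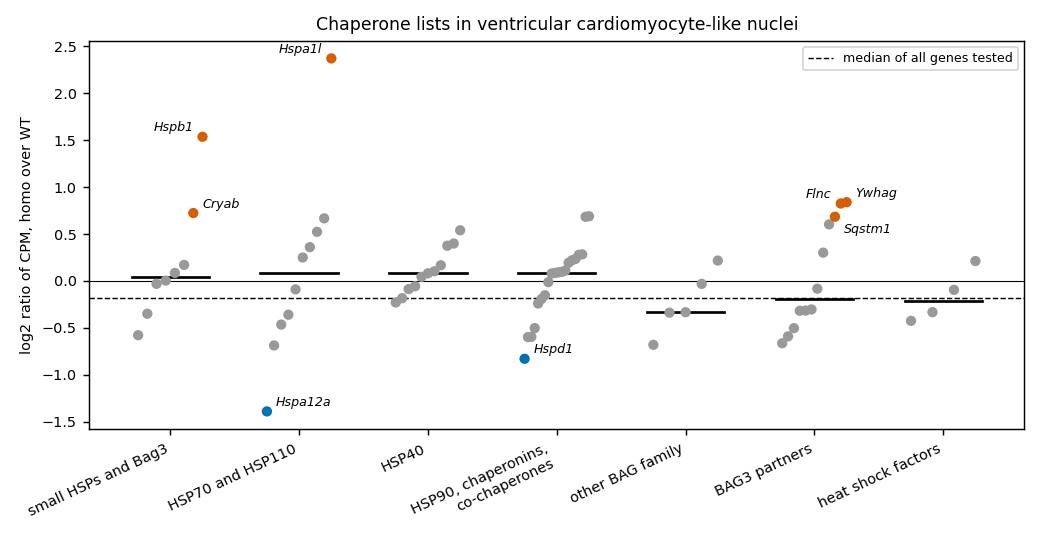
Log2 ratio of CPM of Rbm20_homo over WT in ventricular cardiomyocyte-like nuclei (y axis) for every tested gene of the 8 and of 6 chaperone lists (x axis), with each list's median as a bar and the median of all genes tested, -0.18, as a dashed line. Orange and blue are past 1.5-fold upward and downward, and the medians of the 6 lists lie between -0.33 and 0.09 on the log2 scale.

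Likeness of pattern was measured by Pearson's r of log2(CPM + 1) over 32 points, the 8 classes in 4 libraries, among 11524 genes. Points of one library share its depth and free RNA, and r is a description. Bag3 was most like Tacc2 (0.913), Clip4 (0.904) and Larp1b (0.904). Hspb7 was most like Xirp2 (0.866), a stretch-linked actin-binding protein, Klhl40 (0.842) and Cycs (0.837), and Hspb8 was most like Bbof1 (0.862), Mrpl47 (0.850) and Shroom3 (0.844). Cryab was most like Ptgds (0.839), Actc1 (0.829), the cardiac actin, and Ankrd1 (0.803), a stretch-induced titin partner. Hspb6 was most like Idh3b (0.845), Hectd2os (0.802) and Fxyd1 (0.787), and the weakest best match was that of Hspb1, to Cox6a1 (0.755), Nme2 (0.744) and Strbp (0.739). Hspb2 and Hspb3, with few UMIs, were most like Ccdc107 (0.789), Pex5l (0.768) and Perp (0.766), and Cd28 (0.796), Plag1 (0.779) and D5Ertd579e (0.774). Among the members themselves the highest r was 0.756, between Hspb7 and Cryab, and Hspb1 with Cryab reached 0.622. The partners Hspb8 and Bag3 reached 0.611, and the head-to-head pair Hspb2 and Cryab 0.190.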

How the data were processed

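RNA of single nuclei was measured with 10x 3′ libraries, and the authors deposited raw UMI counts per gene and barcode for each of 4 libraries. Per the submitters' processing notes, tools included Seurat 4 and Cell Ranger 6.1.1, on mm10 (GRCm38), while the file headers give Cell Ranger 4.0.0. Whether intronic reads were counted and the strand setting are not given in the sources used here.

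Barcodes under 300 genes or above 5% mitochondrial UMIs were dropped, and those with the highest Scrublet scores were removed as likely doublets, at 0.8% per 1000 barcodes. Nuclei were clustered with scanpy 1.11.5 (2000 variable genes, 30 components, 20 neighbours, Leiden resolution 0.8, seed 7, leidenalg 0.10.2) and clusters were named by marker genes. UMIs were summed per class and library and given as CPM of non-mitochondrial UMIs. Intervals are exact 95% intervals (Poisson for levels, Clopper-Pearson for shares, conditional binomial for ratios, scipy 1.17.1). They cover counting error only, and hearts within a pool cannot be told apart. A count of 0 allows a level of up to 3 counts. TMM factors came from edgeR 4.0.16, used for scaling only. The method was tested on simulated data.

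All 8 genes are described. The chaperone lists were HSP70 and HSP110, HSP40, HSP90 with chaperonins and co-chaperones, other BAG genes, BAG3 partners in chaperone-assisted selective autophagy, and heat shock factors. Up to 4 genes a list could be named by size of the Rbm20_homo to WT log2 ratio, given 100 UMIs or more. Only some of these genes are named in the text, besides those past the fold. The 3 most like genes of each member are also named. Hspa1a and Hspa1b were named after their values were seen. The members and lists were chosen with earlier results of these data known. Alternatives were another scaling, Malat1 left out of the total, no filter on low counts, a 2-fold threshold, thinning to 1000 UMIs, a 1% mitochondrial limit, no doublet removal, a resolution of 1.6, clustering without the chaperone genes, and cardiomyocyte nuclei chosen without clusters.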

Additional observations from a re-analysis of the deposited data

How the results depend on the processing

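No paired analysis was possible because each genotype had 1 library. With the interval required to lie beyond 2-fold, the number of the 8 genes past the threshold in cardiomyocyte-like nuclei was 1 in Rbm20_homo against WT, 0 in Rbm20_het against WT and 1 in Rbm20_homo_corrected against Rbm20_homo. It was then 1 in fibroblast-like and 0 in endothelial-like nuclei of Rbm20_homo against WT. With nuclei thinned to 1000 UMIs, which leaves fewer UMIs by construction, these counts were 1, 0, 1, 1 and 1 in the same order. Without doublet removal, 1 gene was past the fold in Rbm20_het against WT, and the cause was not tested. The shares of all genes under these settings are not given here. These counts thus do not tell a change in the 8 genes from one in all genes. The other 56 counts under the alternatives stayed within 1.5 times the reported count, and none reversed. Over 11 settings the log2 ratio of Rbm20_homo against WT was 1.48 to 1.72 for Hspb1 and 0.69 to 0.91 for Cryab, and that of Rbm20_homo_corrected against Rbm20_homo was -2.50 to -2.18 for Hspb1 and -1.12 to -0.82 for Cryab. Ratios near 1 changed sign in some settings: Bag3, Cryab and Hspb8 in Rbm20_het against WT, Hspb2 and Hspb3 in Rbm20_homo against WT, and Bag3 and Hspb8 in Rbm20_homo_corrected against Rbm20_homo. The small counts of Hspb2 and Hspb3 limit what can be read from them.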

Other observations

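In 5 smaller classes, each with under 50 nuclei in at least 1 library, Cryab was again highest in Rbm20_homo in 5 of 5. In Schwann-like nuclei it had 84.9 CPM in Rbm20_homo_corrected, 220.2 CPM in Rbm20_homo, 50.8 CPM in Rbm20_het and 101 CPM in WT, from 11 to 37 UMIs a library. In cycling-like nuclei it had 24.3 CPM in Rbm20_homo_corrected, 110.4 CPM in Rbm20_homo, 36.9 CPM in Rbm20_het and 14.2 CPM in WT, from 2 to 67 UMIs. Hspb1 was highest in Rbm20_homo in 3 of these 5 classes. In mesothelial-like nuclei it had 49.9 CPM in Rbm20_homo_corrected, 62.5 CPM in Rbm20_homo, 109.96 CPM in Rbm20_het and 18.8 CPM in WT, from 2 to 19 UMIs. These counts are small, and the part of free RNA in them was not tested.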
